A study of Mus musculus with 8 samples.

Results

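The genes of cholesterol supply followed here were 8 in number: Srebf2, Hmgcs1, Idi1, Fdft1, Sqle, Lss, Dhcr7 and Vldlr. They were taken by name as 8 of the 23483 genes in the count table, each through the transcript with the highest total over all libraries. The libraries were poly(A) RNA of C57BL/6 mouse cells at 5.5 mM glucose, in 4 groups of 2 libraries each. The knock-down group was Sca1 cells that carried a lentiviral shRNA against Set7, encoded by Setd7, and the NTC group was Sca1 cells with a non-target shRNA vector, both kept in puromycin after transduction. Untreated Sca1 cells carried no vector, and mESC were the embryonic stem cells, grown with LIF, from which the Sca1 cells had been derived by LIF withdrawal on gelatin and bead sorting. The labels put the purity of that sort only as a lower bound. The knock-down rests on 1 shRNA sequence, whose 21 bases matched no transcript of a member and, among annotated genes, only Setd7. The labels do not say that the 2 libraries of a group came from separate cultures, so p-values measure only the spread between these libraries. The main fit pooled that spread over all 4 groups.

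Cells make cholesterol from acetyl-CoA through mevalonate, isoprenoid units, squalene and lanosterol, and take it up in lipoproteins through cell-surface receptors. The factor SREBP-2, encoded by Srebf2, is held in the endoplasmic reticulum by SCAP and INSIG while sterols are plentiful. When sterols fall it is cleaved in the Golgi, and its free part enters the nucleus and turns on genes of cholesterol synthesis and uptake. Set7 is a lysine methyltransferase.

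Transcript totals ran from 3354828 to 6788049 counts per library, and Setd7 was at 12.4 CPM in knock-down cells against 63.7 CPM in NTC cells (log2 fold change -2.39 ± 0.20 SE, edgeR adjusted p = 1.71e-07). CPM are depth-scaled counts, here adjusted by the trimmed mean of M values (TMM). A number in the sample descriptions, here called the library code, was 12 or 34 in the knock-down and NTC libraries and 34 or 56 in the untreated Sca1 and mESC libraries; what it stands for is not stated. In both libraries of code 56 the single row NR_046233 took 8.97% (untreated Sca1) and 8.63% (mESC) of all counts, against 0.289% to 1.17% in the other 6. The summed level of 8 pluripotency markers was 2032 to 2362 CPM in untreated Sca1 cells and 3376 to 3640 CPM in mESC. It was 2727 to 2904 CPM in knock-down and 2172 to 2234 CPM in NTC. The markers were uneven, with means in untreated Sca1 cells and mESC of 649 and 709 CPM for Pou5f1 and 187 and 195 CPM for Nanog. For Esrrb they were 313 and 680 CPM, and for Tdgf1 148 and 541 CPM. The part of these differences in the levels of the members and pathway genes was not tested. Ly6a, the gene for Sca1 itself, was at 4.42 to 13 CPM over all 8 libraries, mESC included. In bulk RNA, fewer cells with a transcript and less of it per cell cannot be told apart.

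Of the 8 members, 7 had enough counts to be tested. In untreated Sca1 cells against mESC, Vldlr was higher while Dhcr7 and Fdft1 were lower, so that 1 member was called higher and 2 lower at an adjusted p of 0.05. Over all 13966 genes tested, 18.7% were called higher and 16.8% lower in that comparison. In knock-down against NTC cells, Sqle was called higher and Vldlr lower, beside 4.25% of all genes called higher and 10.1% lower. In NTC against untreated Sca1 cells, Dhcr7 alone was called, and higher, beside 3.88% of all genes called higher and 1.11% lower. The members' median absolute log2 fold change was 0.285, 0.208 and 0.157 in these 3 comparisons, and that of all genes was 0.388, 0.244 and 0.235. Apart from Vldlr, the largest called difference of a member in these comparisons was 0.52 on the log2 scale, that of Dhcr7.

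**Figure D1:**
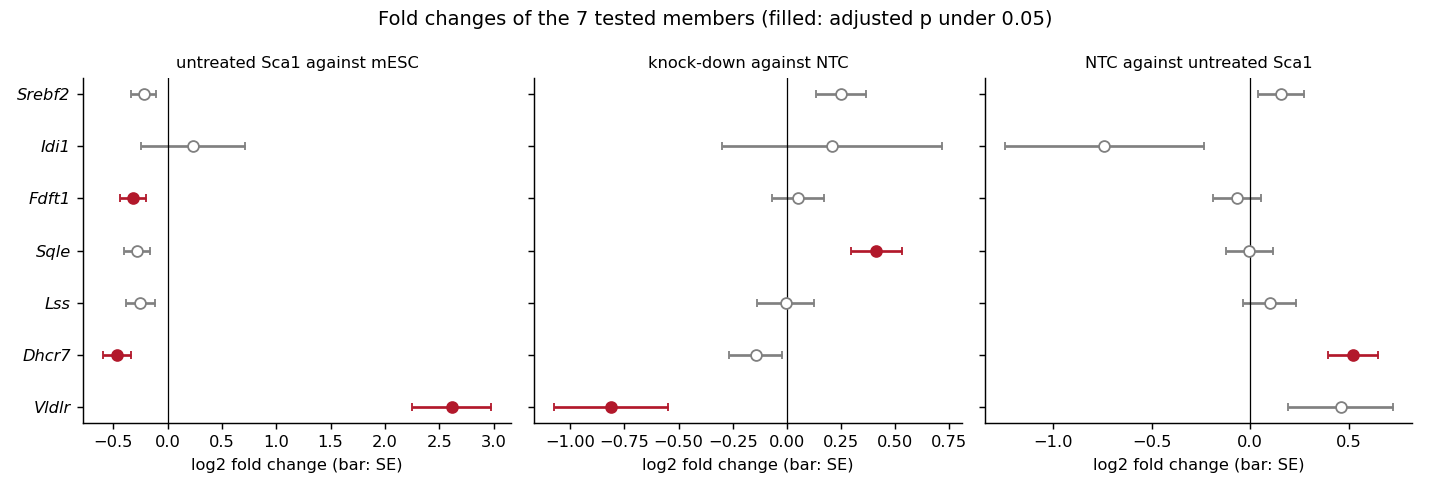
Log2 fold change of the 7 tested members in 3 comparisons, with the group named first over the group named second. Points are edgeR estimates, bars are 1 SE, and filled points have an adjusted p under 0.05. Vldlr in untreated Sca1 cells against mESC lies far to the right at 2.61, and all other called members lie within 1 log2 unit of 0.

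Levels between members can be compared only per length of transcript. On the scale of CPM per kilobase, averaged over the 8 libraries, squalene epoxidase Sqle stood highest at 97.8, followed by Srebf2 at 83.3, Dhcr7 at 49.8, Fdft1 at 39.5 and Lss at 22.3. Vldlr was at 2.67 with its shorter counted transcript and 1.29 with its longer one, since both carried identical counts. Idi1 was at 1.09 and Hmgcs1 was listed at 0.

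**Figure D2:**
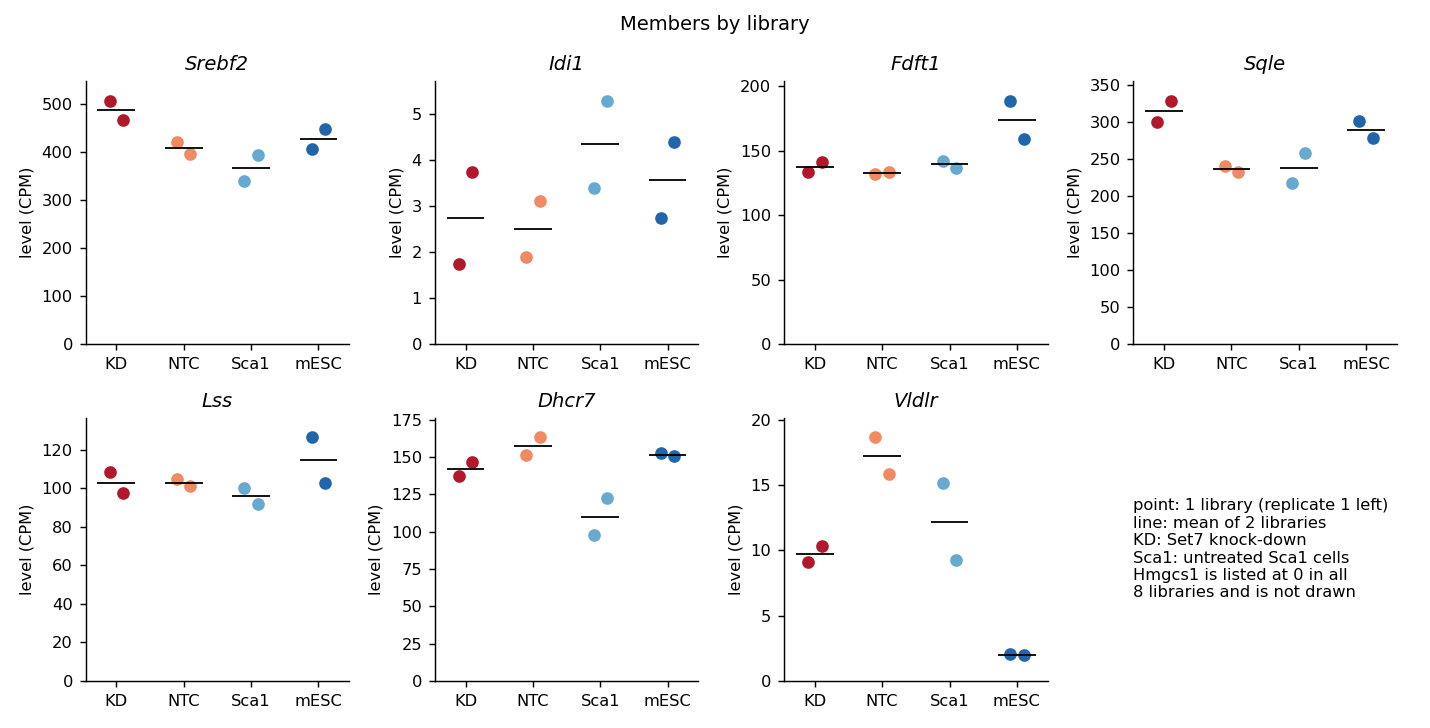
Level of 7 members in TMM-scaled CPM by library, each on its own axis from 0. Each point is 1 library, the left point of a pair being replicate 1, and each line is the mean of 2 libraries. Vldlr in mESC (1.98 and 2.06 CPM) lies below all 6 Sca1-derived libraries, and Fdft1 in mESC (159 and 189 CPM) lies above them.

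Promoter windows from RefSeq (build GRCm38.p6), 250 bases before to 50 bases after an annotated start, were found for 6 of the 8 members, in 9 windows; Fdft1 and Sqle had no entry. Motifs known from SREBP-2 target promoters were searched on both strands: the sterol regulatory element core TCACNCCAC, the NF-Y box CCAAT and the Sp1 box GGGCGG; no matches overlapped in the windows shown. Over all 32851 windows of 27025 genes, the first was present in 1.24%, the second in 37.4% and the third in 35.7%. Among the 9 member windows, 1 held the sterol element core, 6 held CCAAT and 7 held GGGCGG. The core stood in the Hmgcs1 window as TCACCCCAC, with its first base 137 bases before the start. Windows are shown of 4 members, those of the factor gene Srebf2, of Hmgcs1 as the 1 window with the core, and of Dhcr7 and Vldlr as members that were called in opposite directions in untreated Sca1 cells against mESC. They are all on the plus strand, Srebf2 at chr15:82147019-82147318, Hmgcs1 at chr13:119690101-119690400, the third of 3 starts of Dhcr7 at chr7:143829964-143830263 and the second of 2 starts of Vldlr at chr19:27216770-27217069. Capitals mark matches on either strand, so that ATTGG is CCAAT and CCGCCC is GGGCGG on the opposite strand.
Srebf2: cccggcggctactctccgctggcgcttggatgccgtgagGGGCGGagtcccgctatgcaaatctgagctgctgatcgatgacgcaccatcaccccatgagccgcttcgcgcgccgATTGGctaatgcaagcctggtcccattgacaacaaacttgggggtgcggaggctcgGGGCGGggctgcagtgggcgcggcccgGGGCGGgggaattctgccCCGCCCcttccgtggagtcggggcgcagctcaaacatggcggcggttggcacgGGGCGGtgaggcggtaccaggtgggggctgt
Hmgcs1: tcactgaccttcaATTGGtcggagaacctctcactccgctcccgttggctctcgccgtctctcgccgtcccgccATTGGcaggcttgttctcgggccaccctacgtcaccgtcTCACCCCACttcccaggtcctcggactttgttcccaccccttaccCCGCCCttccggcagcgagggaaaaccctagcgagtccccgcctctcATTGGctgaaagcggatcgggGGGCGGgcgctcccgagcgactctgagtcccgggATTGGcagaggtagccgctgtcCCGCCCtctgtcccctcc
Dhcr7: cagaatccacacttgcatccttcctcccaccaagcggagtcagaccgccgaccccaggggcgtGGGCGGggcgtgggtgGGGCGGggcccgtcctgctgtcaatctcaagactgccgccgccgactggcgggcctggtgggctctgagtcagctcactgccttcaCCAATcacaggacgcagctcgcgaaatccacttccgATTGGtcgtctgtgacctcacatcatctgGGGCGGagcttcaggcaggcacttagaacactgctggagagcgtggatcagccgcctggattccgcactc
Vldlr: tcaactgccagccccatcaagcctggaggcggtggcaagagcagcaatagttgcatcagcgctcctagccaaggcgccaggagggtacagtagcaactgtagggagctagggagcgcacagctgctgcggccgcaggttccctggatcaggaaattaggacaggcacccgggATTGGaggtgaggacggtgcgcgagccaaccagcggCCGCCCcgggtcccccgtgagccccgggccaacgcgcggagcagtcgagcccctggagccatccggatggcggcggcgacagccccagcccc
The Srebf2 window held 1 CCAAT and 5 GGGCGG boxes, the Hmgcs1 window 4 and 3, the Dhcr7 window 2 and 3, and the Vldlr window 1 and 1. For Dhcr7 and Vldlr the start with the most matches is shown, chosen after the matches were counted. The first start of Dhcr7 held 0 and 1 and the second 0 and 0, and the first start of Vldlr held 0 and 0. A match is a description of letters and not a binding site, and the absence of one says only that these letters are not in the window.

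Srebf2 (NM_033218, chr15:82147181-82205379 in GENCODE vM21) was at 508 and 466 CPM in the knock-down libraries, 422 and 397 CPM in NTC, 340 and 395 CPM in untreated Sca1 cells, and 408 and 449 CPM in mESC. Both knock-down libraries were above the other 6. Against NTC the log2 fold change was 0.25 ± 0.12 (SE), which was not called (edgeR adjusted p = 0.176); within library code 12 it was 0.27 and within code 34 it was 0.23. Against untreated Sca1 cells it was higher by 0.41 ± 0.12 on the log2 scale (adjusted p = 0.0231), in a comparison that called 17.2% of all genes in either direction. The order of means was knock-down, mESC, NTC and untreated Sca1, and no neighbours in it were called different. Against NTC it was called with a block on the library code, whose 12 and 34 both groups share (0.25, adjusted p = 0.0302), with only the 4 libraries compared (adjusted p = 0.0028) and without both libraries of code 56 (adjusted p = 0.00271). In untreated Sca1 cells against mESC it was -0.22 and not called (adjusted p = 0.152), and was called lower with the same block (adjusted p = 0.0333).

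Hmgcs1 (NM_145942, chr13), which makes HMG-CoA at the head of the pathway, was listed at 0 in every library. How reads were assigned to transcripts is not given in the sources used here, so the 0 sets no limit on the level of the transcript, and the part of that step in it was not tested. A floor of 3 counts corresponds to 0.659 to 1.33 CPM here and covers counting error of assigned reads only, and no fold change can be given. Of 20622 coding genes in the table, 3181 (15.4%) were likewise listed at 0 in all 8 libraries. Of the 36-base words in its annotated transcript, 14.3% also occurred in another gene's transcript, the overlapping antisense gene Gm48342; 36 bases is a length chosen here, as the read length is not given in the sources used.

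Idi1 (NM_145360, chr13), the isomerase that interconverts the isoprenoid building blocks, had 5 and 17 counts in the knock-down libraries, 8 and 14 in NTC, 11 and 12 in untreated Sca1 cells, and 12 and 20 in mESC. As levels these were 1.75 and 3.74 CPM in knock-down, 1.89 and 3.12 CPM in NTC, 3.4 and 5.3 CPM in untreated Sca1 cells, and 2.75 and 4.4 CPM in mESC. Both NTC libraries were below both untreated Sca1 libraries, the other 5 pairs of groups overlapped, and none of the 6 pairs was called. The means were 2.74 CPM in knock-down, 2.51 CPM in NTC, 4.35 CPM in untreated Sca1 cells and, for mESC, 3.57 CPM. The SE of its log2 fold change was 0.48 to 0.51, so a change of that size would not have been detectable at this depth. Of its 36-base words, 31.7% also occurred in transcripts of other genes, foremost the processed pseudogene Gm13502, and how such reads were assigned is not given in the sources used here.

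Fdft1 (NM_010191, chr14:63145150-63179578, minus strand), squalene synthase, the first enzyme committed to sterols, was at 134 and 141 CPM in the knock-down libraries, 132 and 134 CPM in NTC, 142 and 137 CPM in untreated Sca1 cells, and 189 and 159 CPM in mESC. Both mESC libraries were above the other 6, which lay between 132 and 142 CPM. It was lower than in mESC in untreated Sca1 cells by 0.32 ± 0.12 on the log2 scale (adjusted p = 0.0477), in knock-down cells by 0.34 (adjusted p = 0.0449) and in NTC cells by 0.39 (adjusted p = 0.0163). The last 2 comparisons called 25.9% and 35.1% of all genes in either direction, and all 3 share the mESC libraries. Within code 34 the untreated Sca1 against mESC difference was -0.41 and within code 56 it was -0.22. That call was lost in 12 of 19 alternatives, with an adjusted p of 0.082 to 0.217 without any 1 of the libraries other than mESC replicate 2. The order of means was mESC, untreated Sca1, knock-down and NTC, and only the step from mESC to untreated Sca1 was called among neighbours. Of the 36-base words of its transcript, 34.9% also occurred in other genes, mostly in Ctsb, which overlaps it on the opposite strand, and in the pseudogene Gm6781. Ctsb, a gene chosen after its values were seen, was lower by 0.49 in untreated Sca1 cells against mESC (adjusted p = 0.00327), and without the strand of the libraries, reads in the overlap cannot be told apart.

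Sqle (NM_009270, chr15:59315077-59331192), squalene epoxidase, which carries out the first oxygenation of the pathway and is one of its rate-limiting steps, was at 300.5 and 329 CPM in the knock-down libraries, 241 and 232 CPM in NTC, 218 and 258 CPM in untreated Sca1 cells, and 301 and 278 CPM in mESC. The knock-down libraries were above all NTC and untreated Sca1 libraries and overlapped with mESC. Sqle was higher in knock-down than in NTC cells by 0.41 ± 0.12 on the log2 scale (315 against 237 CPM, edgeR adjusted p = 0.0259). It was higher than in untreated Sca1 cells by the same 0.41 ± 0.12 (edgeR adjusted p = 0.0268), in a comparison that called 17.2% of all genes in either direction. The 2 comparisons share the knock-down libraries. The difference from NTC was 0.32 within code 12 and 0.50 within code 34. The call against NTC was lost without any 1 of the 4 libraries compared, at adjusted p = 0.0927 without knock-down replicate 1, 0.283 without knock-down replicate 2, 0.166 without NTC replicate 1 and 0.234 without NTC replicate 2. Library totals in place of TMM also ended it (adjusted p = 0.151). These were 5 of 20 alternatives, and the call stood in the other 15. In untreated Sca1 cells against mESC the libraries did not overlap, yet the log2 fold change of -0.29 was not called (adjusted p = 0.0738); it was -0.47 within code 34 and -0.11 within code 56, and was called lower with a block on the library code (adjusted p = 0.0217) and without untreated Sca1 replicate 2 (adjusted p = 0.0324) or mESC replicate 2 (adjusted p = 0.0386). The order of means was knock-down, mESC, untreated Sca1 and NTC, and no neighbours in it were called different.

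Lss (NM_146006, chr10), lanosterol synthase, which closes the sterol rings, was at 109 and 97.4 CPM in the knock-down libraries, 105 and 101 CPM in NTC, 100.1 and 91.9 CPM in untreated Sca1 cells, and 127 and 103 CPM in mESC. The knock-down and NTC libraries overlapped, and none of the 6 pairs of groups was called. The largest of the 3 main differences was -0.25 ± 0.13 in untreated Sca1 cells against mESC (adjusted p = 0.155), which was called without mESC replicate 2 (adjusted p = 0.0271). Of its 36-base words, 5.35% also lay in the antisense gene 4930483K19Rik, whose reads cannot be told apart from those of Lss without the strand. By mean, mESC came first at 115 CPM, NTC and knock-down stood at 103 CPM each, and untreated Sca1 cells came last at 96 CPM.

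Dhcr7 (NM_007856, chr7:143823145-143848410), the reductase that turns 7-dehydrocholesterol into cholesterol, was at 137 and 147 CPM in the knock-down libraries, 151 and 163 CPM in NTC, 98 and 122 CPM in untreated Sca1 cells, and 152 and 151 CPM in mESC. Both untreated Sca1 libraries were below the other 6. In untreated Sca1 cells it was below mESC by 0.47 ± 0.13 on the log2 scale (110 against 152 CPM, adjusted p = 0.00864), with -0.64 within code 34 and -0.30 within code 56. That call was lost without untreated Sca1 replicate 1 (adjusted p = 0.114) or with only the 4 libraries compared (adjusted p = 0.0518). In NTC cells it was higher than in untreated Sca1 cells by 0.52 ± 0.13 (157 against 110 CPM, adjusted p = 0.0245), and by 0.73 between the single libraries of code 34. This call was lost without any 1 of 5 libraries, at adjusted p = 0.0679 and 0.068 when a knock-down library was omitted, 0.17 and 0.263 when an NTC library was, and 0.157 when untreated Sca1 replicate 1 was. The 2 comparisons share the untreated Sca1 libraries. In knock-down against untreated Sca1 cells the log2 fold change was 0.38 ± 0.13, not called (adjusted p = 0.0543), and in knock-down against NTC cells it was not called (adjusted p = 0.502), although the knock-down libraries lay below both NTC libraries. The order of means was NTC, mESC, knock-down and untreated Sca1, and no neighbours in it were called different.

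Vldlr (NM_001161420, chr19:27216484-27254231), a receptor that binds lipoproteins rich in apolipoprotein E, was the lowest of the tested members after Idi1 and the one that varied most. It had 26 and 47 counts in the knock-down libraries, 79 and 71 in NTC, 49 and 21 in untreated Sca1 cells, and 9 and 9 in mESC. As levels these were 9.11 and 10.3 CPM in knock-down, 18.7 and 15.8 CPM in NTC, 15.1 and 9.28 CPM in untreated Sca1 cells, and 2.06 and 1.98 CPM in mESC. The mESC libraries were below all others, the knock-down libraries lay below both NTC libraries, and the knock-down and untreated Sca1 libraries overlapped. Vldlr was higher than in mESC in each of the 3 Sca1-derived groups, by 2.61 ± 0.36 on the log2 scale in untreated Sca1 cells (adjusted p = 2.38e-05), 2.26 in knock-down cells (adjusted p = 0.000177) and 3.07 ± 0.33 in NTC cells (adjusted p = 1.17e-06), with the same mESC libraries in all 3. For untreated Sca1 cells the difference was 2.60 within code 34 and 1.97 within code 56, and the call held under all 19 alternatives, with an adjusted p of at most 0.00185.

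In knock-down against NTC cells Vldlr was lower by 0.81 ± 0.26 on the log2 scale (9.72 against 17.2 CPM, adjusted p = 0.048), with -0.99 within code 12 and -0.59 within code 34. This call stood just inside the threshold and was lost without any 1 of the 4 libraries compared, at adjusted p = 0.265 when knock-down replicate 1 was omitted, 0.219 for knock-down replicate 2, 0.339 for NTC replicate 1 and 0.137 for NTC replicate 2. It was also lost with DESeq2 (adjusted p = 0.279), library totals only (0.0765) and RLE factors (0.051). Against untreated Sca1 cells, the log2 fold change of knock-down cells was -0.35 and was not called (adjusted p = 0.453). The order of means was NTC, untreated Sca1, knock-down and mESC, and only the step from knock-down to mESC was called among neighbours. The summed level of 8 fibroblast and mesenchyme markers ranged from 96.3 to 106 CPM in knock-down, 1927 to 2008 CPM in NTC, 808 to 892 CPM in untreated Sca1 cells and 35.2 to 39.8 CPM in mESC, in the same order as Vldlr, and that of 8 smooth muscle markers was 233 to 249 CPM in knock-down, 767 to 793 CPM in NTC, 825 to 1226 CPM in untreated Sca1 cells and 70.6 to 74 CPM in mESC. The summed level of 6 endothelial markers was 103 to 120 CPM in knock-down, 96.2 to 102 CPM in NTC, 50.4 to 55 CPM in untreated Sca1 cells and 171 to 190 CPM in mESC. The 4 measured blood and macrophage markers were all under 3 CPM. Of 8 visceral endoderm markers, which together were at 640 to 747 CPM in the knock-down and NTC libraries, 286 to 363 CPM in untreated Sca1 cells and 755 to 911 CPM in mESC, the defining genes Afp, Ttr, Apoa1 and Apob were under 3 CPM in all libraries. The part of any of these cell types in the Vldlr levels was not tested.

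**Figure D3:**
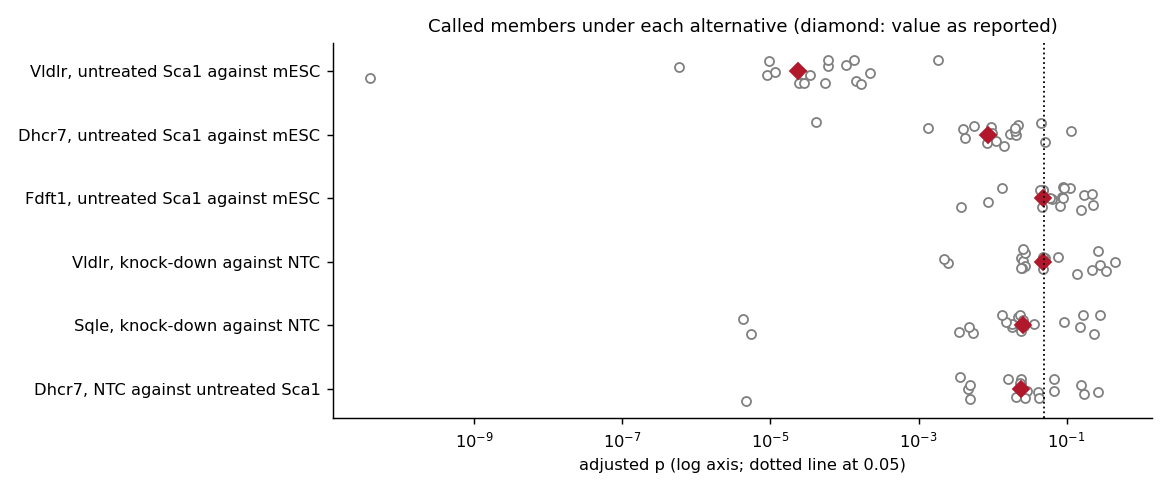
Benjamini-Hochberg adjusted p of the 6 member calls in the 3 main comparisons, as reported (diamonds) and under each alternative (circles), on a log axis with a dotted line at 0.05. The Vldlr circles in untreated Sca1 cells against mESC all lie left of the line, up to 0.00185, and the other 5 calls have circles on both sides.

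Over all genes tested, the untreated Sca1 against mESC comparison called 18.7% higher and 16.8% lower. Among the wider pathway, it called 0 of 20 tested sterol synthesis enzymes, from a list of 21, higher and 4 lower. The list's median log2 fold change was -0.21, and 75% of the enzymes had a value below 0, beside 50.5% of all genes. Besides Dhcr7 and Fdft1, the lower ones included the isomerase Ebp (-0.80, edgeR adjusted p = 0.000223). Without untreated Sca1 replicate 1 the calls were no longer all lower, with 1 higher and 1 lower. There were 0 higher and 7 lower without untreated Sca1 replicate 2, and the same counts without mESC replicate 2; with a block on the library code, 1 was higher and 7 were lower. Of 10 genes of SREBP processing, 1 was higher and 3 were lower, Srebf1 (-0.44), Insig2 (-0.74) and the site-1 protease gene Mbtps1 (-0.30). Without untreated Sca1 replicate 2 or mESC replicate 2, 1 was higher and 1 lower; Srebf1 was lost without untreated Sca1 replicate 1 (adjusted p = 0.153), Insig2 without untreated Sca1 replicate 2 (0.061) or mESC replicate 2 (0.0667), and Mbtps1 without any 1 library other than mESC replicate 1 (0.0815 to 0.144). Insig1 (-0.16) and Scap (-0.10) were not called.

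Lipoprotein uptake had the largest share of called genes of the 6 lists in untreated Sca1 cells against mESC, with 5 of 12 genes higher and 3 lower. Over all genes 18.7% were called higher and 16.8% lower. The median of the uptake list was 0.57, with both directions within the receptors. Besides Vldlr, the higher ones included Lrp8, the other receptor for apolipoprotein E particles (59.2 against 26.3 CPM, log2 1.15, adjusted p = 0.000142) and Lrp1, a large scavenging receptor (126 against 74.1 CPM, log2 0.76, adjusted p = 0.000913). The lower ones included the HDL receptor gene Scarb1 (log2 -0.76, adjusted p = 0.000654). Within code 34 and code 56, Lrp1 differed by 0.82 and 0.72. Beside these, the fibroblast and mesenchyme markers summed to 808 to 892 CPM in untreated Sca1 cells and 35.2 to 39.8 CPM in mESC, and their part in the uptake genes was not tested. Vldlr, Lrp8, Lrp1 and Scarb1 were all called under each of the 19 alternatives. In the 8 tested of 12 genes of efflux, storage and oxysterols, Soat1, which esterifies cholesterol, was higher (0.49), and Apoe (-0.68) and Nr1h2 (-0.47) were lower; the Soat1 and Nr1h2 calls were lost without untreated Sca1 replicate 2 (adjusted p = 0.232 and 0.187). The isoprenoid branch had 2 of 9 genes higher, Fnta (0.56) among them, and 3 lower, Pdss1 (-0.90), Pdss2 (-0.83) and Fntb (-0.32). Its count of 5 was 3 without any 1 of the knock-down, NTC and untreated Sca1 libraries, and Fntb was lost without any 1 library other than mESC replicate 1 (adjusted p = 0.0754 to 0.126). Of 10 fatty acid synthesis genes, Fads2 was higher (0.49) and Elovl6 lower (-0.60), and Fads2 was lost without untreated Sca1 replicate 2 (adjusted p = 0.218).

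**Figure D4:**
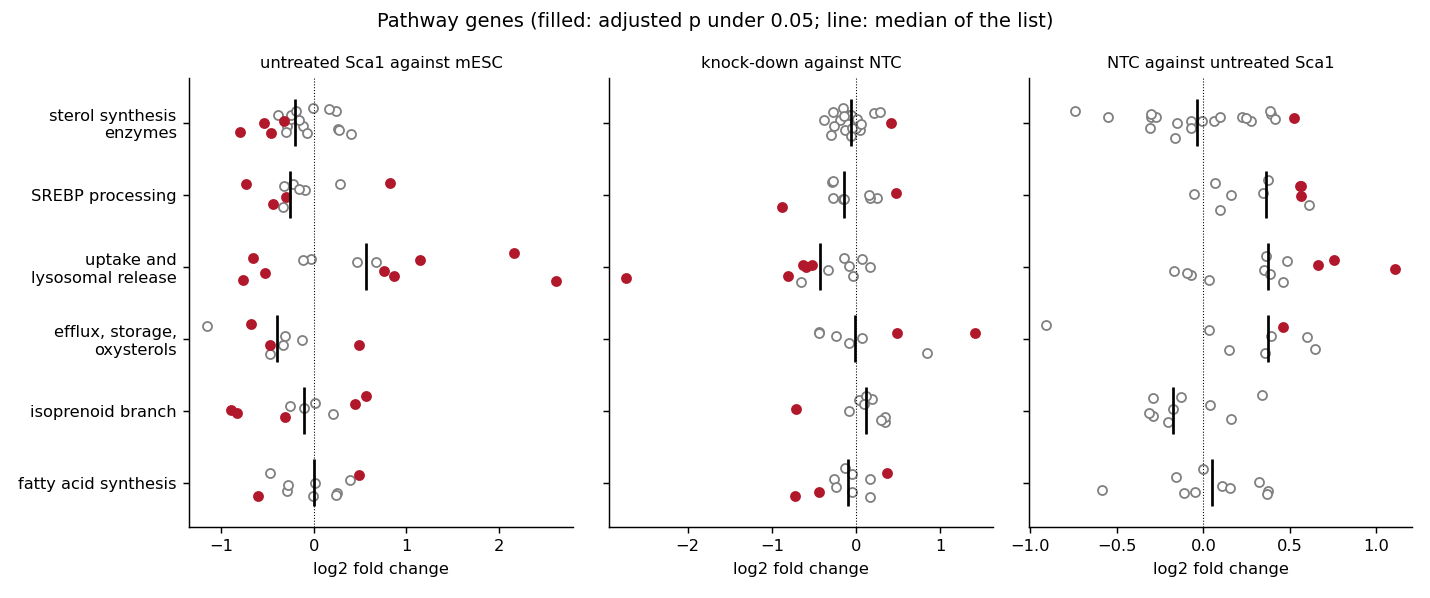
Log2 fold changes of the genes of 6 pathway lists, members included, in 3 comparisons, with the group named first over the group named second. Each circle is 1 gene, filled where the adjusted p is under 0.05, and the vertical line is the list's median. In knock-down against NTC cells the uptake list is the one with 5 filled circles, all below 0, with Lrp1 the farthest at -2.73.

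In knock-down against NTC cells, 4.25% of all genes were called higher and 10.1% lower. Sqle, which was higher, was the single sterol synthesis enzyme called of 20, and the list's median was -0.06. Of these enzymes 70% had a value below 0, beside 50% of all genes. The 15 enzymes that are not members had 0 calls in either direction. In the uptake list 0 of 12 genes were higher and 5 were lower, with a median of -0.43. They included Vldlr, Lrp1 (41.3 against 271 CPM, log2 -2.73 ± 0.16, adjusted p = 2.02e-09) and Lrp8 (39.5 against 59.9 CPM, log2 -0.59, adjusted p = 0.0342). Within code 12 and code 34, Lrp1 differed by -2.72 and -2.67. The fibroblast and mesenchyme markers moved the same way between these groups, with summed levels of 96.3 to 106 CPM in knock-down and 1927 to 2008 CPM in NTC, as did the smooth muscle markers, with 233 to 249 CPM in knock-down and 767 to 793 CPM in NTC. Their part in Lrp1 and in the uptake list was not tested. Without any 1 of the 4 libraries compared the count was 1, that of Lrp1, which held under all 20 alternatives. Lrp1 was at 44.5 and 38 CPM in knock-down, 297 and 246 CPM in NTC, 114 and 138 CPM in untreated Sca1 cells and 64.3 and 83.9 CPM in mESC, in which the knock-down libraries were the lowest of all.

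Of 10 SREBP processing genes, Rnf139, a ubiquitin ligase of the endoplasmic reticulum, was higher in knock-down than in NTC cells (0.47, edgeR adjusted p = 0.0341). In the same list 1 gene was lower, beside 4.25% of all genes called higher and 10.1% lower. The Rnf139 call was lost when any single one of the 4 libraries compared was omitted, at adjusted p = 0.165 for knock-down replicate 1, 0.221 for knock-down replicate 2, 0.277 for NTC replicate 1 and 0.172 for NTC replicate 2. Scap (-0.28, adjusted p = 0.172) and Insig1 (0.16) were not called. Of 8 efflux and storage genes, Apoe was higher (941 against 674 CPM, log2 0.48, adjusted p = 0.0106), as was the cholesterol esterifying gene Soat2 (9.7 against 3.68 CPM, log2 1.42, adjusted p = 0.0116). Soat2 alone was called without knock-down replicate 1, and neither was without any 1 of the other 3. Soat2 rested on low counts, 24 and 50 in knock-down and 17 and 15 in NTC. Its call was also lost with DESeq2 (adjusted p = 0.119). In the isoprenoid branch Coq2 was lower (-0.72), a call lost without knock-down replicate 2 (adjusted p = 0.127) or NTC replicate 1 (adjusted p = 0.105). Among fatty acid synthesis genes Elovl6 was higher (0.37) and Fads1 (-0.73) and Fads2 (-0.44) were lower, and only Fads1 was called without any 1 of the 4 libraries.

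In NTC against untreated Sca1 cells, 3.88% of all genes were called higher and 1.11% lower. Dhcr7 was the single sterol synthesis enzyme called of 20, and the median of the list was -0.04. The count was 0 without any 1 of the knock-down and NTC libraries. The direction of the calls turned with the untreated Sca1 library left out, with 0 higher and 2 lower without replicate 1 and 3 higher and 0 lower without replicate 2. Without either mESC library 3 were higher and 1 was lower, and with a block on the library code 4 were higher and 0 lower. Of 10 SREBP processing genes 3 were higher, Mbtps1 (0.57, adjusted p = 0.00744), Srebf1 (0.56, adjusted p = 0.018) and Scap (0.56, adjusted p = 0.022), with a median of 0.36. That count was 1 without any 1 of the knock-down libraries or untreated Sca1 replicate 1, and 0 without either NTC library. In the uptake list 3 of 12 genes were higher, among them Lrp1 (1.11, adjusted p = 0.000387) and the lysosomal cholesterol exporter gene Npc1 (0.76, adjusted p = 0.00165). Vldlr, at 17.2 CPM in NTC and 12.2 CPM in untreated Sca1 cells, was not called (log2 0.46 ± 0.27, adjusted p = 0.351), and its difference between the single libraries of code 34 was 0.06. Apoe was higher (0.46, adjusted p = 0.0346), a call lost without any 1 of the 6 Sca1-derived libraries (adjusted p = 0.0889 to 0.361), and no gene of the isoprenoid or fatty acid lists was called.

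Genes whose pattern over the 8 libraries was nearest to each tested member were sought among 8515 tested genes of at least 20 CPM, by the root mean square difference of log2 CPM after centring. Nearest to Srebf2 were Strada (0.0469) and Bod1l (0.0534), to Sqle Snx27 (0.0744) and Gpd2 (0.0767), and to Fdft1 Ythdf2 (0.027) and Ndufv2 (0.0472). Nearest to Lss were Ube2o and Terf2ip, to Dhcr7 Rhbdd3 and Derl2, to Vldlr Apcdd1 (0.259) and Dsp (0.271), and to Idi1, whose counts are low, Nae1 (0.202) and Rapgef5 (0.238). None of these genes was a member or belonged to the 6 pathway lists. The lists hold only 9 to 21 genes each, beside 8515 genes searched. Vldlr (mean 10.3 CPM) and Idi1 (3.29 CPM) were below the 20 CPM minimum and could not be named. The lack of overlap therefore does not show whether members vary with their pathway.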

How the data were processed

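The authors deposited whole-number counts per RefSeq transcript for 8 poly(A) libraries read on a Genome Analyzer IIx; judged from the values, no scaling had been applied. Tools named in the submitters' processing notes, with no role stated, are BWA (0.5.9), SAMtools (0.1.17) and edgeR (0.19). Genome build, counting program, annotation release, strand and read length: not given in the sources used. Of 29614 transcripts, 28985 were named from a RefSeq gene table and 173 from GENCODE vM21, and 456 kept their accession. The transcript with the highest total stood for each gene, because transcripts of a gene often carry identical counts.

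R 4.3.3 was used with edgeR 4.0.16 (limma 3.58.1): filterByExpr (minimum count 10), TMM scaling, and robust quasi-likelihood F tests in 1 model of the 8 libraries with a mean for each group (residual df 4, common dispersion 0.0133). Benjamini-Hochberg adjustment ran over 13966 genes, and calls were made at 0.05. Each SE was obtained by dividing the log2 fold change by the root of its F. Alternatives were DESeq2 1.42.0, RLE factors, library totals alone, other filters, summed transcripts, replicate blocks, the compared groups only, untreated Sca1 as control and single libraries left out; omitting the row with the most counts or both libraries of code 56 was chosen after seeing the data. Within-code differences used log2 CPM with a prior count of 2. The procedure was run on simulated data, drawn with the same dispersion of 0.0133 for every gene and library. Such data cannot show how the procedure behaves where groups or genes differ in spread.

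Members and lists were chosen with earlier results of these data known. Named genes were the 8 members, Insig1 and Scap, Setd7 as a check, and 2 nearest genes per member. Up to 4 called genes of smallest p per list and comparison were named as well. Ctsb and the cell-type markers given by name fell outside that rule. Some list genes that the rule would name are not reported here. Totals of 3354828 to 6788049 counts limit precision for low genes such as Vldlr and Idi1.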

Additional observations from a re-analysis of the deposited data

How the results depend on the processing

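The members called in untreated Sca1 cells against mESC were 3; they were 5 with the library code as replicate block, 1 with the compared groups only, 6 without both libraries of code 56 and 1 to 5 with a single library left out. In knock-down against NTC cells they were 2; they were 1 with RLE factors, 0 with library totals only, 1 with DESeq2 and 0 to 2 with a single library left out. In NTC against untreated Sca1 cells it was 1; it was 2 without both libraries of code 56 and 0 to 1 with a single library left out. Leaving out a library can leave a group with 1, which is then assumed to vary like the other groups. The main fit pools the spread over all groups, while the compared groups only draw on their own. Between the 2 libraries of a group, the median absolute log2 difference was 0.1504 in knock-down and 0.1307 in NTC. It was 0.2405 in untreated Sca1 cells and 0.2499 in mESC. The causes of these shifts were not tested.

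Whether the replicate numbers in the titles pair the libraries was not settled. The correlation of deviations was 0.265 for untreated Sca1 with mESC, which share the library code at each replicate number. It was 0.0526 for knock-down with NTC, which share it too. The other pairs of groups gave -0.0592 to 0.00593. They set libraries of unlike code side by side, so those values cannot show whether libraries pair by code. With the title number as replicate block the member counts stayed at 3, 2 and 1. With the library code as replicate block they were 5, 3 and 1. Over all genes, the 1998 calls in knock-down against NTC cells were 1225 with DESeq2, 4416 with the compared groups only, 4462 without both libraries of code 56 and 648 to 2826 with a single library left out. The 697 calls in NTC against untreated Sca1 cells were 1148 with no filter, 1261 with the code block, 2386 without code 56 and 57 to 1517 with a single library left out. The 4964 calls over all genes in untreated Sca1 cells against mESC were 5786 with the code block and 3486 with the compared groups only. With library totals only, higher and lower calls were 259 and 1154 in knock-down against NTC cells, instead of 594 and 1404. They were 493 and 18 in NTC against untreated Sca1 cells, instead of 542 and 155.

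Among the named genes, signs turned for values that were not called as reported. In untreated Sca1 cells against mESC, Idi1 was -0.071 without untreated Sca1 replicate 2 and -0.062 without mESC replicate 1, in a leave-one-out range up to 0.611, and Scap was 0.082 without untreated Sca1 replicate 1, in a range from -0.271. In knock-down cells with untreated Sca1 as control, Dhcr7 was 0.377, Fdft1 -0.018, Idi1 -0.532, Lss 0.093 and Scap 0.278. Against NTC, Idi1 was -0.515 without knock-down replicate 2 and -0.107 without NTC replicate 1, in a range up to 0.605, and Lss was 0.006 with RLE factors and DESeq2, 0.075 without knock-down replicate 2 and 0.022 without NTC replicate 1, in a range from -0.079. In NTC against untreated Sca1 cells, library totals only gave Fdft1 0.023, Insig1 0.039 and Sqle 0.097; the code block gave Lss -0.055 and Sqle 0.043; and Sqle was 0.007 with no filter, 0.022 without NTC replicate 2, 0.117 without untreated Sca1 replicate 2, in a range from -0.122, and 0.109 without code 56.

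Without both libraries of code 56, Srebf2 (adjusted p = 0.0414), Sqle (0.000383) and Lss (0.0404) were also called in untreated Sca1 cells against mESC, and Srebf2 (0.0264) in NTC against untreated Sca1 cells. Depth limits Idi1 and Vldlr, and the part of read assignment in the 0 of Hmgcs1 was not tested.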
